A study of Mus musculus with 5 samples.

Results

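B cells are the lymphocytes that make antibody. A mature B cell that has not met its antigen carries membrane IgM and IgD together, and the paired proteins Cd79a and Cd79b pass the signal of that receptor into the cell. B cells also present peptides on MHC class II molecules, and those that go on to secrete antibody become plasma cells. In the kidney they are known as a minor resident and infiltrating population.

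The B cells described here came from 4 droplet single-cell RNA libraries of mouse kidney, made in a study of ureteric obstruction that was later relieved. All 4 libraries were from 8-week-old C57/BL6 mice with no genetic alteration named, and each pooled 3 mice. The groups were sham surgery (day 0), 2 days and 7 days of unilateral ureteric obstruction (UUO), and reversed UUO, taken 7 days after the obstruction was undone and 14 days into the experiment. Tissue was dissociated in the cold and sorted only for viability (DAPI), so neither a B cell sort nor an immune sort stood behind these numbers. A further sample of the series, made by a plate-based method, was not used here.

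A cell was kept with at least 200 detected genes and at most 50% of its unique molecular identifiers (UMIs, 1 per captured RNA molecule) from mitochondrial genes. It was called a B cell with at least 3 UMIs summed over Cd79a, Cd79b and Ms4a1 (CD20), at least 2 of these 3 genes detected, at most 1 UMI of Cd3d, Cd3e and Cd3g, and none of Csf1r. The cells were thus selected on measured counts of these 7 genes, whose levels are description only. The rule found 63 B cells among 13823 kept cells: 1 in the sham library, 22 at day 2, 14 at day 7 and 26 in reversed UUO. No barcode of a B cell occurred in more than 1 library. Because each time point is 1 pooled library, differences between time points carry no test and no replicate error.

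The libraries held between 18649637 and 30462683 UMIs and between 2207 and 4447 kept cells. The sham library stood apart: its kept cells had a median of 2709 UMIs and a mitochondrial share of 33.7%, against medians of 4937.5 to 6590 UMIs and 2.98% to 9.80% in the others. It gave 1 B cell, and it entered no comparison of expression below. For comparison, the same kind of rule found 103, 239 and 248 T cells (from Cd3d, Cd3e and Cd3g) and 419, 1493 and 405 mononuclear phagocytes (from Csf1r) at day 2, at day 7 and in reversed UUO.

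Promoters of 2 genes that mark these cells are shown because each holds a recognition motif of a factor known for B cell gene control. Vpreb3 encodes a chaperone of the immunoglobulin light chain, and Cd22 encodes a sialic-acid-binding inhibitory co-receptor. Each run is the 200 bases before the start of the RefSeq transcript on the gene's own strand (build GRCm38.p6), at chr10:75948100-75948299 on the plus strand for Vpreb3 and at chr7:30879029-30879228 on the minus strand for Cd22. The capitals mark the octamer ATGCAAAT, bound by POU factors such as Pou2f2 and read here on the opposite strand 45 bases before the start of Vpreb3, and the EBF motif, TCCC and GGGA with any 2 bases between them, 49 bases before the start of Cd22. Both windows lie inside the longer gene spans of the GRCm38 gene annotation, which holds further upstream starts.
Vpreb3: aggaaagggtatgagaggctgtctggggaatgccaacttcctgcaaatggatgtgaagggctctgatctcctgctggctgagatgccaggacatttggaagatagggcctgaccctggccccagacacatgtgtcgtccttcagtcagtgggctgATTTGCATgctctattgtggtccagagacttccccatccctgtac
Cd22: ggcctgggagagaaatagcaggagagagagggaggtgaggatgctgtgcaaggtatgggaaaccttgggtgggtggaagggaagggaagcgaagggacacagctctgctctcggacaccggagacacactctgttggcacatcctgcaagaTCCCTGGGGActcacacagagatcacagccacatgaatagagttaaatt

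The promoter table matched 75 of the 109 genes that were higher in B cells than in both T cells and phagocytes (tests below). Over both strands of the 300-base promoters, the octamer occurred in 3 of these 75 (4%), in 62 of the 3673 promoters of genes tested in both comparisons (1.688%) and in 532 of all 27025 promoters (1.969%). The EBF motif occurred in 1 of the 75 (1.333%) against 1.225% of the promoters of tested genes and 1.062% of all. The E-box CAGGTG, the class of site read by E proteins, occurred in 23 of the 75 (30.67%) against 19.74% and 22.56%, and the PU box GAGGAAGT, read by Spi1 and Spib, in 4 (5.333%) against 4.71% and 3.689%. Each run shown holds 1 match of the 4 motifs, and an E-box 245 bases before the start of Cd22 lies outside its run. A match is a description of letters, not of binding.

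The cells carried B lineage genes that the rule did not use. Of 8 B cell markers outside the rule (among them Cd22, Pax5, Ebf1, Fcer2a, Bank1, Blk and Ly6d), at least 3 were detected in 60 of the 63 cells and at least 1 in 61. Their summed count ran from 0 through a median of 13 to 30 UMIs per cell. All 3 rule genes were detected in 46 cells, and 14 cells had no Ms4a1 UMI. Markers of other classes differed in how often they were seen: 42 cells had no UMI of the T cell markers (highest 3), 58 none of the natural killer cell markers, 58 none of the conventional dendritic cell markers, 42 none of the neutrophil markers and 38 none of the endothelial markers. Proximal tubule markers were at 0 in 23 cells, plasma cell markers in 20, plasmacytoid dendritic cell markers in 27 and phagocyte markers in 7. Their medians were 1, 1, 1 and 2 UMIs per cell.

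The rule's threshold left few cells near it. Cd79a, Cd79b and Ms4a1 together gave 3 to 38 UMIs per B cell, with a median of 12. By library that median was 15.5 at day 2, 8.5 at day 7 and 11 in reversed UUO. Just inside the threshold, 3 B cells had exactly 3 such UMIs (1 at day 2 and 2 at day 7). Just outside it, 6 cells had 2 UMIs over 2 genes (2 at day 2, 3 at day 7 and 1 in reversed UUO). The exclusion terms removed more: of 82 cells that met the marker part, 17 had Csf1r UMIs, 5 had more than 1 Cd3 UMI, and 3 of these had both. At day 7 the Csf1r term removed 11 of 27 cells, 6 of them on a single UMI. Allowing 1 Csf1r UMI gave 1, 23, 19 and 27 B cells in sham, day 2, day 7 and reversed UUO.

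Not every cell that met the rule carried a B cell profile alone. In 13 of the 63 cells (1 in sham, 3 at day 2, 4 at day 7 and 5 in reversed UUO), the marker list of another class had more UMIs than the 8 B cell markers outside the rule. They are called mixed cells below, by a rule set after the data had been seen. Since they were chosen by these markers, leaving them out lowers the markers of other classes and favours the 8 B cell markers by construction. The lists that exceeded the B cell markers were those of proximal tubule in 8 cells, phagocytes in 7, neutrophils and endothelium in 3 each, plasmacytoid dendritic cells and plasma cells in 2 each, and T cells, natural killer cells and conventional dendritic cells in 1 each, and 1 cell can count for several. A day 2 cell had 186 neutrophil-marker UMIs, a day 7 cell had 78 phagocyte-marker UMIs, another day 7 cell had 40 endothelial-marker UMIs, the deepest day 7 cell had 69 plasmacytoid dendritic cell UMIs and none of the 8 B cell markers outside the rule, and reversed-UUO cells had up to 76 proximal tubule UMIs. The only sham B cell was among them, with 19 proximal tubule UMIs and 30.8% mitochondrial UMIs. It carried 6 Cd79a, 8 Cd79b, 4 Ms4a1, 70 Cd74 and 37 Igkc UMIs, with none of Ighm or Ighd and 4 of Ighg2b. The threshold that the doublet caller Scrublet set for itself marked 41 of the 13823 kept cells and 0 of the 63, too few for the caller to be taken as having worked. In its place the cells with the highest Scrublet scores were left out as an alternative, in a number preset at 0.8% doublets per 1000 cells, and 7 of the 63 were among them (2 at day 2, 2 at day 7 and 3 in reversed UUO).

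The B cells were shallow. Their total UMIs ran from 2215 through a median of 2712 to 25085. Library medians were 2969 at day 2, 2586 at day 7 and 2738 in reversed UUO, below the T cell medians of 3652, 3556 and 3187.5 and the phagocyte medians of 10717, 6868 and 7064. The deposited matrices have a floor of UMIs per cell (lowest kept cell 2299, 2164 and 2260), and 63.6%, 64.3% and 76.9% of B cells lay within 1.5 times that floor. The same share was 41.7%, 43.5% and 56.5% for T cells and 3.58%, 9.58% and 12.1% for phagocytes. How many B cells lay below the floor was not tested.

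**Figure D1:**
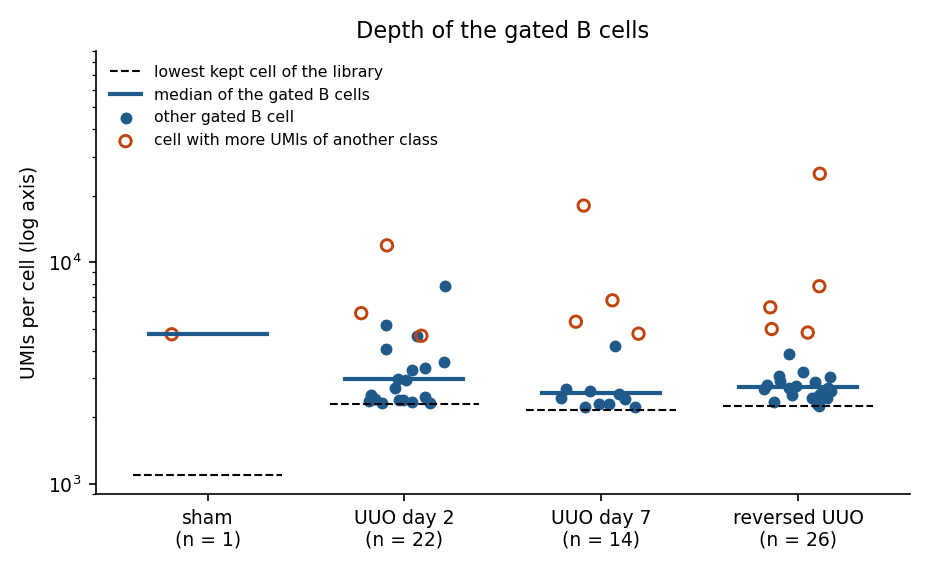
Total UMIs of each of the 63 B cells on a log axis, by library, with each library's B cell median and its lowest kept cell. Open points are the 13 mixed cells. Most B cells sit just above the lowest kept cell, and the deepest cell of each library other than sham is a mixed one (11924, 18026 and 25085 UMIs).

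B cells made up 0.0254% of kept cells in sham (95% Clopper-Pearson interval 0.000644 to 0.142), 0.997% at day 2 (0.626 to 1.51), 0.315% at day 7 (0.172 to 0.528) and 0.803% in reversed UUO (0.525 to 1.18). The day 7 interval lay below that of day 2 and overlapped that of reversed UUO. It met the day 2 interval when 1 Csf1r UMI was allowed (0.257 to 0.666 at day 7 against 0.662 to 1.56 at day 2). It also did so when cells were thinned to 1000 UMIs before the rule was applied (0.140 to 0.471 against 0.449 to 1.23, with 0.283 to 0.802 in reversed UUO). Among gated immune cells (B cells, T cells and phagocytes), the shares were 1 of 45 (2.22%, 0.0562 to 11.8) in sham, 22 of 544 (4.04%, 2.55 to 6.06) at day 2, 14 of 1746 (0.802%, 0.439 to 1.34) at day 7 and 26 of 679 (3.83%, 2.52 to 5.56) in reversed UUO. The day 7 library had the lowest share of the 3 obstructed or reversed libraries, and it held 1493 of the 2343 phagocytes. Among B and T cells alone, the shares were 17.6% (11.4 to 25.4), 5.53% (3.06 to 9.11) and 9.49% (6.29 to 13.6) at day 2, at day 7 and in reversed UUO. Intervals cover counting error only, in 1 library each. The depth floor and the Csf1r term bear on these shares as described above, and their part was not tested. With the same thinning the immune share was 17 of 98 (17.3%, 10.4 to 26.3), 12 of 350 (3.43%, 1.78 to 5.91) and 16 of 205 (7.80%, 4.53 to 12.4) in the same order. Day 7 was lowest again, but its interval overlapped that of reversed UUO. Far fewer immune cells met the rules after thinning, so these shares are not on the scale of the unthinned ones.

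Most cells had the IgM and IgD transcripts of mature, unswitched B cells. An Ighm UMI was found in 59 of 63 cells (93.7%, 84.5 to 98.2) and an Ighd UMI in 47 (74.6%, 62.1 to 84.7), and all 47 cells with Ighd also had Ighm. Ighm ran from 0 through a median of 7 to 23 UMIs per cell and Ighd from 0 through 2 to 8. The 2 constant regions are neighbours on the minus strand, Ighm at chr12:113418558-113422730 and Ighd at chr12:113406604-113416324 (GRCm38 gene annotation), and are known to be spliced from 1 primary transcript. Constant regions that follow class switching (the Ighg genes, Igha and Ighe) had a UMI in 6 cells and at least 2 UMIs in 2 cells: the sham cell and a single cell of reversed UUO described below.

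Free RNA in droplets can give immunoglobulin UMIs in cells that do not make them, so shares were set beside gated endothelial cells of the same libraries after thinning every cell to 1000 UMIs (unthinned endothelial medians 3874, 3467 and 3940 UMIs). Ighd then had a UMI in 40.9% (20.7 to 63.6), 42.9% (17.7 to 71.1) and 50% (29.9 to 70.1) of B cells at day 2, at day 7 and in reversed UUO, and in 0%, 0.266% and 0% of endothelial cells. Unthinned, the B cell shares were 77.3%, 71.4% and 76.9%. Fcer2a, the low-affinity IgE receptor CD23 of follicular B cells, had a UMI in 27.3%, 35.7% and 30.8% of thinned B cells and in at most 0.304% of endothelial cells. Igkc had a UMI in 95.5%, 78.6% and 92.3% of thinned B cells and in 2.08%, 10.9% and 9.73% of endothelial cells, and Ighm in 90.9%, 78.6% and 84.6% against 0.694%, 3.99% and 2.74%. Shares of B cells were above the endothelial background for each of these genes in all 3 libraries, and the B cell intervals of the 3 libraries overlapped for Ighd and for Fcer2a.

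A B cell normally makes 1 light chain, kappa (Igkc) or lambda (Iglc1, Iglc2 or Iglc3). Among 59 cells with at least 10 light-chain UMIs, kappa gave at least 80% of them in 33 (55.9%, 42.4 to 68.8) and at most 20% in 6 (10.2%, 3.82 to 20.8), and the remaining 20 lay between. Cells dominated by kappa were 11 of 22 at day 2, 7 of 11 at day 7 and 14 of 25 in reversed UUO, and cells in between were 10, 2 and 8. Igkc ran from 0 through a median of 28 to 9885 UMIs per cell and the lambda sum from 0 through 7 to 176. Iglc2 and Iglc3 are near-identical copies, so reads may be split between them uncertainly, and their sum is the safer value. Free RNA was not subtracted from these counts. Variable segments were sparse: 7 Ighv genes in 6 cells, 10 Igkv genes in 10 cells and 3 Iglv genes in 6 cells, and no segment occurred in more than 3 cells (Iglv1).

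**Figure D2:**
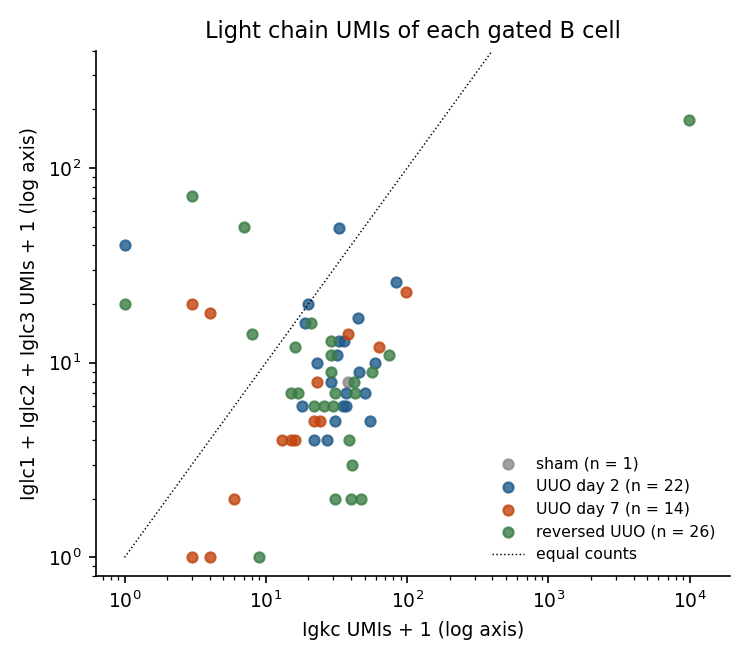
Igkc UMIs against the sum of Iglc1, Iglc2 and Iglc3 for each of the 63 B cells, both plus 1 on log axes, coloured by library, with a dotted line of equal counts. Most cells lie to the kappa side, 6 cells with at least 10 light-chain UMIs have at most 20% kappa, and 1 reversed-UUO cell stands alone with 9885 Igkc UMIs.

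That cell, 1 of the 7 among the highest Scrublet scores, was led by genes of antibody-secreting cells. It was the deepest of the 63, with 25085 UMIs, and carried 9885 UMIs of Igkc, 1888 of Igha, 1127 of Jchain (the joining chain of polymeric IgA and IgM), 176 of the lambda genes and 110 of Mzb1, a chaperone of immunoglobulin assembly. Its most abundant variable segments were Iglv1 (73 UMIs), Igkv1-135 (60) and Ighv1-26 (23), and Igkv4-59 and Iglv3 had 3 UMIs each and Ighv8-8 had 1. It also carried 19 phagocyte and 16 proximal tubule marker UMIs. Whether both kinds of light chain came from 1 cell was not tested. None of the 8 B cell markers outside the rule was detected in it, which places it among the mixed cells. It supplied 93.6% of the Igkc UMIs, 99.9% of the Igha UMIs and 99.7% of the Jchain UMIs of the reversed-UUO B cells. Igkc stood at 99641 CPM (UMI counts scaled to the same total in every class and library) in that library with this cell and at 8412 without it, against 8860 at day 2 and 5228 at day 7.

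To see what sets B cells apart from the other lymphocytes, UMIs were summed per library and class at day 2, at day 7 and in reversed UUO and tested over all genes with a library block (edgeR quasi-likelihood test, Benjamini-Hochberg adjustment, 3 libraries, 2 residual degrees of freedom). The 7 genes of the rule were left out. Of 4814 genes tested, 208 (4.32%) were higher and 240 (4.99%) lower in B cells than in T cells at an adjusted p under 0.05, and the median log2 difference of all genes was -0.05. The 3 libraries are different time points, so the spread behind these p-values is the spread between them. Without the day 2 library, which had the highest B cell median of UMIs, 82 genes were higher and 80 lower.

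The largest differences ran along B cell identity. Fcer2a stood at 331, 230 and 198 CPM in B cells at day 2, at day 7 and in reversed UUO and had no UMI in T cells, which makes it at least 208-fold higher against a floor of 3 UMIs over the 3 libraries. Vpreb3 (319, 148 and 198 CPM) was at least 188-fold higher on the same scale. Ly6d, a surface protein that marks commitment to the B lineage, stood at 1311, 1282 and 990.2 CPM in B cells and 4.29, 3.86 and 4.07 in T cells, a log2 difference of 8.23 ± 0.33 (SE; edgeR adjusted p = 8.36e-08). These genes were ranked by fold change with 1 sign in every library, so their lack of overlap between the classes follows from that choice. The 3 B cell values of Ly6d lie close together. Fcmr, the receptor for IgM, was 372-fold higher (counting interval 124 to 1833), and Mzb1 was 8.77 ± 0.45 higher on the log2 scale. The plasma-like cell held 110 of the 139 Mzb1 UMIs of reversed UUO, where Mzb1 stood at 1311 CPM with it and 358 without it, against 224 and 263 CPM at day 2 and day 7. Also among the named genes were Iglc1, Iglc2, Gm43291 and Gm43603. The 5 named genes lower in B cells were Cd8b1 (at least 35.3-fold), Xcl1 (33.5), Bcl11b (25.7), Ctsw (25.6) and Skap1 (23.3), genes of T cell identity and function with no UMI in B cells. The genes named here kept their calls when any 1 library and when the mixed cells were left out. Fcer2a and Ly6d are among the B cell markers by which mixed cells were chosen, so leaving those cells out is no check on them.

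Gm43291 and Gm43603 are loci without a functional name that share ground with B cell genes. Gm43291 (ENSMUSG00000105646) spans chr6:70719074-70740554 on the plus strand, a long non-coding RNA locus that overlaps the Igkj segments and Igkc on the same strand. It was 524-fold higher than in T cells (counting interval 90.1 to 21081). Gm43603 (ENSMUSG00000104710) spans chr3:135904344-136167184 on the plus strand and is annotated as antisense to Bank1, and it was 8.15 ± 0.46 higher on the log2 scale. UMIs of Gm43291 cannot be told from those of the kappa locus by this overlap, and the counting of overlapping and antisense reads is not given in the sources used here.

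The immunoglobulin genes tested were all higher in B cells (6 of 6, median log2 8.13). Ighd stood at 721, 509.6 and 566 CPM in B cells and at most 4.82 in T cells, 7.35 ± 0.40 higher. Iglc2 stood at 1831, 559 and 2414 CPM against at most 3.05, 9.34 ± 0.41 higher. Ighm stood at 2339, 1545 and 1754 CPM against 148, 224 and 209 in T cells, a smaller difference of 3.40 ± 0.29 over a background that was similar in phagocytes (154, 221 and 188). Igkc was 8.11 ± 1.03 higher with the reversed-UUO value given above, and it lost its call without the day 2 library.

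Receptor signalling genes were higher in B cells for 10 of the 12 tested, with a median of 3.20. Bank1, a scaffold of receptor calcium signalling, stood at 343, 148 and 528 CPM against at most 3.05 in T cells (7.16 ± 0.44). Cd22 (5.06 ± 0.66), the kinase Syk (4.95 ± 0.55) and the adaptor Blnk (3.89 ± 0.41) followed. The inhibitory receptors Cd72 (2.25 ± 0.38) and Fcgr2b (2.17 ± 0.60), the kinase Lyn (2.51 ± 0.62) and the tetraspanin Cd81 (1.66 ± 0.27) were also higher, as was Cr2. Plcg2 and Ptpn6 did not pass, and Btk, Blk, Pik3ap1 and Vav2 were too low to test. Without the day 2 library 5 of the 10 calls remained: Cd72, Cd81, Fcgr2b and Lyn lost theirs, and Cr2 was too low to test there and without reversed UUO. Without the mixed cells Fcgr2b stood at 2.10 (edgeR adjusted p = 0.0547), close to its value with them.

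Transcription factors gave 10 of 13 tested higher and none lower, with a median of 2.48. Ebf1, which specifies the B lineage, stood at 1394, 953 and 943 CPM against 6.44, 11.6 and 6.10 in T cells (7.08 ± 0.36). Pax5, which maintains it, stood at 70.9, 164 and 169.7 CPM and was 168-fold higher (counting interval 43.1 to 1444). Bcl11a (5.88 ± 0.51), Mef2c (5.79 ± 0.34), Irf8 (2.46 ± 0.35), Pou2f2 (1.92 ± 0.34) and Foxp1 (1.76 ± 0.27) were higher too, with Spib, Spi1 and the octamer co-activator Pou2af1, the last 105-fold (33.0 to 538). Without the day 2 library Pou2f2 and Spi1 lost their calls, and Spib was too low to test there and without reversed UUO. Endothelial cells also express Ebf1 (a UMI in 29.9%, 22.9% and 27.1% of thinned endothelial cells against 77.3%, 64.3% and 73.1% of B cells).

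Maturity genes were higher for 11 of 13 tested (median 3.85), led by Fcer2a, Vpreb3 and Ighd. Cd55, a complement regulator, was 4.05 ± 0.35 higher, Fcrl1 3.85 ± 0.63, Cd38 2.61 ± 0.37 and Cd24a 2.36 ± 0.35. Cd5, carried by T cells and by B-1a cells, was lower in B cells, with 1 UMI in all, at day 7 (16.4 CPM), against 88.0, 126 and 161 CPM in T cells. Class II genes were higher for 9 of 10 tested (median 3.28). Cd74, the invariant chain, stood at 18429, 14943 and 15211 CPM against 607, 2790 and 1541 in T cells (3.67 ± 0.51). H2-DMb2 and H2-Ob, subunits of the peptide-loading chaperone DM and of its modulator DO, differed most (5.08 ± 0.44 and 5.77 ± 0.38), and H2-DMb1 did not pass (1.10 ± 0.48, edgeR adjusted p = 0.194). Without the day 2 library 9 of the 12 maturity calls and 3 of the 9 class II calls remained, the class II losses being Cd74, Ciita, H2-Aa, H2-Ab1, H2-DMa and H2-Eb1. Zbtb20, another maturity gene called higher, lost its call without day 2, without day 7 and without the mixed cells, and Fcrl1 was too low to test without reversed UUO. Zbtb20 also missed the threshold by the DESeq2 Wald test.

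Homing and survival genes gave calls in both directions. Ccr7, which guides cells to lymphoid T zones, stood at 284, 164 and 217 CPM against 32.2, 21.2 and 23.4 in T cells (3.24 ± 0.32). The follicle receptor Cxcr5 was 4.45 ± 1.16 higher, while the integrin Itgb7 was lower (-1.88 ± 0.39), so that 3 of 10 homing genes tested were higher and 1 lower. Cxcr5 was too low to test without any 1 of the 3 libraries, and Itgb7 lost its call without day 2. The receptor of the survival factor BAFF, Tnfrsf13c, stood at 260, 148 and 198 CPM against at most 3.05 in T cells (6.56 ± 0.48), and Tnfrsf13b was 2.49 ± 0.44 higher. The anti-apoptotic genes Bcl2a1b (-2.04 ± 0.36) and Bcl2a1d (-2.36 ± 0.60) were lower, giving 2 higher and 2 lower of 7. Tnfrsf13b and Bcl2a1d lost their calls without day 2.

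Among genes of responding or dividing cells, 1 gene was called higher and 8 lower of 32 tested, beside 4.32% higher and 4.99% lower over all genes. Of 8 activation genes tested, Cd83 was higher (1.98 ± 0.33) and Nfkbia lower (-1.03 ± 0.26), and Cd69 did not differ beyond its error (-0.03 ± 0.35). Of 14 interferon response genes none was higher and Ifi27l2a (-1.40 ± 0.25), Zbp1 and Ifit1 were lower. Of 10 cell-cycle genes none was higher and Hmgb2 (-2.41 ± 0.29), Top2a (-2.76 ± 0.62), Stmn1 (-1.96 ± 0.54) and Birc5 were lower. The activation and interferon calls were all lost without day 2, as were Top2a and Birc5. Without day 7 the calls of Nfkbia, Zbp1, Birc5 and Stmn1 were lost, without reversed UUO that of Birc5 (Ifit1 was too low to test in both), and without the mixed cells those of Ifit1 (-2.27 with and -2.14 without them) and Zbp1 (-2.17 and -1.84). By the DESeq2 Wald test Nfkbia, Ifit1, Zbp1, Birc5 and Stmn1 did not pass. No germinal centre gene reached the level needed for a test against T cells, and against phagocytes 3 were tested and none passed (median -2.38). Bcl6, the master factor of the germinal centre, Mef2b and Gcsam had no UMI in any of the 63 cells, which allows a share of cells with a UMI of up to 4.76%, and Il10 had none either. Fas had 6 UMIs and S1pr2 had 1. Tubule genes of the kind found as free RNA were higher for 3 of 10 tested, Fxyd2 and Gpx3 among them, and all 3 lost their calls without the mixed cells, where Fxyd2 and Gpx3 turned to -0.62 and -0.60. Endothelial markers were also higher, 3 of 4 tested (Pecam1, Kdr and Emcn, median 2.29). Kdr and Emcn lost their calls without the mixed cells or without day 7, and all 3 without day 2. Without the mixed cells the values of Kdr and Emcn were 1.91 and 0.47, and the part of endothelial RNA in these differences was not tested.

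**Figure D3:**
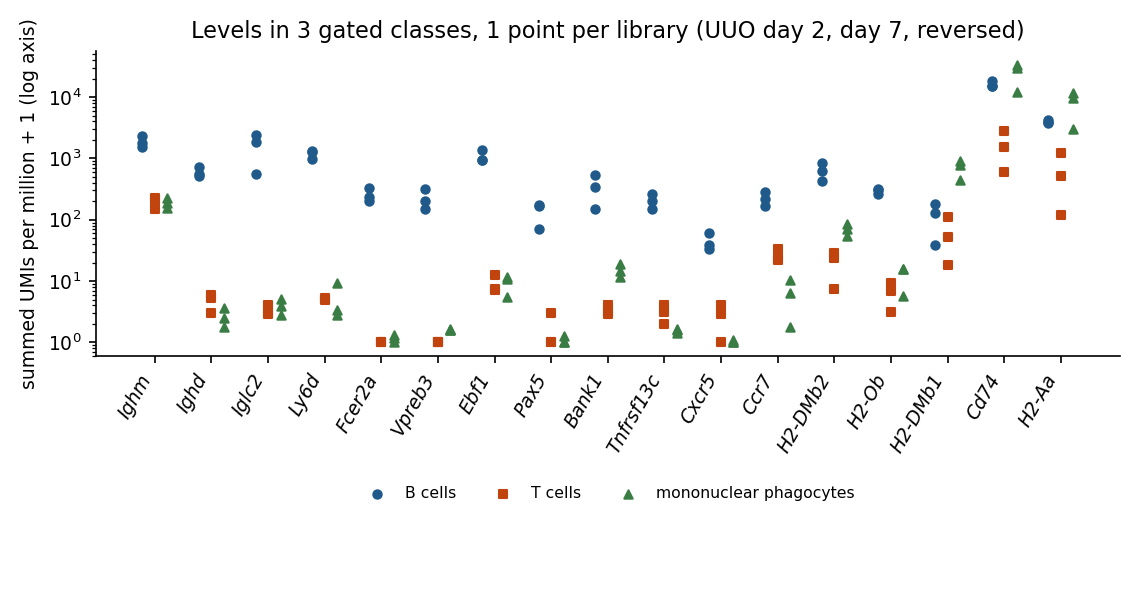
Levels of 17 genes in summed B cells, T cells and phagocytes, as CPM plus 1 on a log axis, with 1 point per library (day 2, day 7 and reversed UUO). The B cell points of Ighd, Iglc2, Ly6d, Fcer2a, Vpreb3 and Ebf1 all lie above those of both other classes, while the phagocyte points of H2-DMb1 lie above the B cell points. Iglc2, Ly6d, Fcer2a and Vpreb3 were named for the size of their differences, so their separation follows in part from that choice.

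Mononuclear phagocytes are the other large class II-bearing population of these libraries, and the same test against them asked how B cells differ from other antigen-presenting cells. Of 10339 genes tested, 314 (3.04%) were higher and 912 (8.82%) lower in B cells (edgeR quasi-likelihood test, adjusted p under 0.05), and the median log2 difference of all genes was -0.31. With DESeq2 size factors the split was 399 higher and 706 lower and the median was -0.11, so differences close to these shifts have no firm direction. Of the genes higher against phagocytes 34.7% were also higher against T cells, 109 genes that make up 52.4% of that shorter list. Among the named genes were Fcer2a (1623-fold, counting interval 531 to 8081), Pax5 (876-fold, 275 to 4457), Ighd (8.02 ± 0.40 on the log2 scale), Iglc1 (8.97 ± 0.42), Igkc (8.03 ± 0.67), Iglc2, Fcmr, Mzb1 and the kappa-overlapping Gm43291. Lower were Chil3 (at least 18.7-fold), AF251705 (23.4), Axl (16), Bcl2a1a (12.1) and Igsf6 (9.84), with no UMI in B cells. They kept their calls without any 1 library and without the mixed cells, and by the DESeq2 Wald test all but Chil3 did. Fcer2a and Pax5 are among the B cell markers by which mixed cells were chosen, so leaving those cells out is no check on them.

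Class II genes were called in both directions against phagocytes. The peptide-presenting chains were lower in B cells than in phagocytes: H2-Aa stood at 4158, 3748 and 3866 CPM against 3064, 11506 and 9668 (-1.17 ± 0.40), with H2-Ab1 (-1.24 ± 0.40) and H2-Eb1 (-1.39 ± 0.39) alike. At day 2 the B cell level of H2-Aa was the higher one, and at day 7 and in reversed UUO the lower one. Cd74 did not pass (-0.85 ± 0.47). The DM beta chains went opposite ways: H2-DMb2 was higher in B cells (827, 427 and 622 CPM against 68.5, 82.8 and 53.2; 2.89 ± 0.31), and H2-DMb1 lower (130, 181 and 37.7 CPM against 447, 923 and 773; -3.04 ± 0.37). Both subunits of DO, a molecule known from B cells, were higher, H2-Ob by 4.49 ± 0.36 and H2-Oa by 2.94 ± 0.37. Over the list 3 of 12 were higher and 6 lower (median -1.01), beside 3.04% higher and 8.82% lower over all genes. H2-Aa and H2-Ab1 lost their calls without any 1 library and H2-Eb1 without day 2 or without reversed UUO, and none of the 3, nor H2-DMa, passed by the DESeq2 Wald test, whereas the calls of H2-DMb2, H2-DMb1, H2-Ob and H2-Oa did not change in these settings.

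All 7 immunoglobulin constant genes tested were higher than in phagocytes (median 8.02), Igha only with the plasma-like cell included. Receptor signalling gave 7 higher and 4 lower of 16 (median 0.15), beside 3.04% higher and 8.82% lower over all genes. Among the higher were Bank1, Cr2, Blk, Cd22, Blnk and Syk. Lower were Fcgr2b (-2.44 ± 0.37), Lyn (-1.48 ± 0.38), Cd72 (-1.47 ± 0.34) and Cd81, inhibitory receptors and partners that phagocytes express as well. Syk lost its call without any 1 library, where Blk was too low to test, Cd81 without day 2 or reversed UUO, Blnk without day 2 and Lyn without day 7 or the mixed cells. By the DESeq2 Wald test Blnk, Syk, Cd72, Cd81, Lyn, Igha, Cd9 and Plac8 did not pass. Transcription factors gave 10 higher and 1 lower of 14 (median 3.46). Ebf1 was 6.73 ± 0.37 higher and Ets1 4.32 ± 0.35, while Spi1, the myeloid and B cell factor PU.1, was lower (-2.72 ± 0.37) and Irf8 did not pass (-0.29 ± 0.32). Bach2, one of the 10, lost its call without reversed UUO. Maturity genes gave 10 higher and 2 lower of 15 (median 1.68), the lower ones being Cd9, which lost its call without day 2 or reversed UUO, and Plac8, which lost it without any 1 library. Zbtb20 lost its call without the mixed cells, and Cr2 was too low to test without reversed UUO.

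The counts of the further lists stand beside 3.04% higher and 8.82% lower over all genes tested against phagocytes, with a median of -0.31. Of 9 homing genes tested 5 were higher and none was lower (median 3.06), with Ccr7 (5.27 ± 0.43), Ccr6, S1pr1 and S1pr4 among the higher. Cxcr4, Gpr183, Itga4 and Itgb7 did not pass. Survival genes gave 2 higher (Tnfrsf13c, 7.98 ± 0.61, and Bcl2) and 2 lower (Bcl2a1b and Bcl2a1d) of 7, with a median of -0.50. Lymphotoxin beta (Ltb), which organises lymphoid tissue, stood at 732, 509.6 and 829.9 CPM against 11.2, 27.8 and 19.4 in phagocytes (4.90 ± 0.34), while against T cells, at 1110, 1108 and 1024 CPM, it did not pass (-0.52 ± 0.28, edgeR adjusted p = 0.298). Of 4 cytokine genes tested against phagocytes 3 were called, and Tnf (-2.67) and Tnfsf13b, with no UMI in B cells, were lower. Both lost these calls without day 7, reversed UUO or the mixed cells (Tnf then at -2.10) and by the DESeq2 Wald test. Activation genes gave 1 higher (Cd69, 2.48 ± 0.43) and 6 lower of 12, with Fos (-2.48 ± 0.35) and Jun (-1.78 ± 0.33) among them. Interferon genes gave 1 higher (Ly6a) and 7 lower of 15, and cell-cycle genes 0 higher and 9 lower of 12. Ccr6 was too low to test without day 7. Calls were lost for Ly6a without reversed UUO or the mixed cells, Nfkbia without any 1 library, Fosb and Isg15 without reversed UUO, Zbp1 without day 7 and Oasl2 without day 7 or reversed UUO. Junb, Nfkbia, Isg15, Oasl2 and Zbp1 did not pass by the DESeq2 Wald test. Of the 9 cell-cycle calls 1 remained by that test, 2 with no library block and 1 without day 2, and Ccnb2, Mki67 and Tyms were lost without any 1 library and without the mixed cells. Mki67 stood at -2.92 with and -2.33 without the mixed cells, and Tyms at -2.51 and -2.97. Ccnb2 had no UMI in B cells, and its fitted value hardly changed (-9.36 and -9.44). The 3 tubule genes called higher, Miox and Fxyd2 among them, all lost that call without the mixed cells, where Fxyd2 was lower instead (-1.19). Endothelial markers were higher for 3 of 5 (Pecam1, Kdr and Emcn, median 2.03), and Kdr and Emcn lost their calls without the mixed cells (1.58 and -0.16) or without day 2. By the DESeq2 Wald test none of the 3 tubule genes passed, nor did Emcn.

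**Figure D4:**
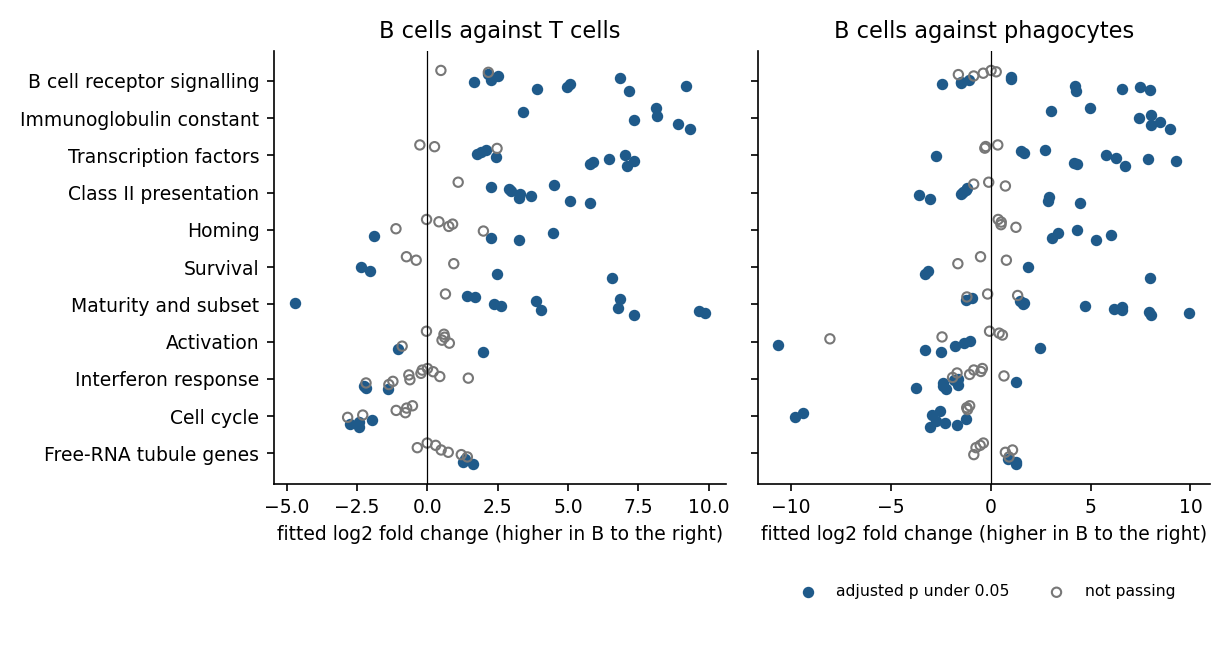
Fitted log2 differences of the genes of 11 lists, B cells against T cells on the left and against phagocytes on the right, each point 1 gene. Filled points passed the test (edgeR adjusted p under 0.05). Immunoglobulin genes lie far to the right in both, class II genes lie to the right against T cells and mostly to the left against phagocytes, and the passing cell-cycle genes lie to the left in both.

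Across time, B cells of 1 library were set against those of another by the log2 ratio of CPM plus 10, for genes with at least 20 UMIs over the 2 libraries. Past 2-fold, 110 of 974 genes (11.3%) were higher and 88 (9.03%) lower at day 7 than at day 2. From day 7 to reversed UUO, 75 of 1042 (7.2%) were higher and 150 (14.4%) lower, and from day 2 to reversed UUO 82 of 1123 (7.3%) were higher and 136 (12.1%) lower. These comparisons share libraries. Of the genes past 2-fold, 125 of 198, 164 of 225 and 136 of 218 would have held under 20 UMIs with both libraries at the lower of their levels, so they were compared only through the library where they were high. With scaling by TMM in place of totals the splits became 75 higher and 146 lower, 165 and 75, and 111 and 77, while the median of all genes moved from -0.08 to -0.33, from -0.20 to 0.30 and from -0.30 to -0.04, so neither direction can be called the more common.

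Single cells made many of the largest ratios. Of the 29 differences named here for the 3 comparisons, all but those of Igkc and Spp1 met the minimum of 20 UMIs only through the higher library, so their size is in part set by that filter. A single cell supplied more than 50% of a gene's UMIs in 48 of the 110 genes higher at day 7 than at day 2 (43.6%) and in 21 of the 88 lower (23.9%), against 15.0% of all genes compared. From day 7 to reversed UUO these were 18 of 75 (24%) and 61 of 150 (40.7%), against 16.2%, and from day 2 to reversed UUO 25 of 82 (30.5%) and 21 of 136 (15.4%), against 8.01%. Higher at day 7 than at day 2 were Atp6v1g3, a proton pump subunit of intercalated cells (96 UMIs against 0), Plet1 (22 against 0), the chloride exchanger Slc26a4 (20 against 0), Fabp4 (52 against 3) and Tmem52b (24 against 1). One cell held 94 of the 96 Atp6v1g3 UMIs. Among those lower were Slc13a1 (0 against 21), the chemokine Cxcl2 (1 against 42), Spink1 (6 against 152) and the neutrophil gene S100a8 (7 against 105, of which 1 cell held 98). Without the mixed cells Atp6v1g3 fell to 1 UMI against 0, Slc26a4 and Tmem52b to 0 in both, and S100a8 to 3 against 4. S100a8 is one of the neutrophil markers by which mixed cells were chosen, so its fall follows in part from that choice. None of these genes belongs to the B cell lists.

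Against day 7, Igha (1890 UMIs against 1), Jchain (1130 against 1), Slpi (181 against 1), Slc34a1 (61 against 0) and Miox (49 against 0) were higher in reversed UUO, and without the mixed cells they had 2 against 1, 3 against 0, 0 against 0, 8 against 0 and 5 against 0. Lower were Atp6v1g3, Plet1, Slc26a4, Tfcp2l1 (0 against 22) and Dkk2 (0 against 20). Against day 2, Igha, Jchain, Acsm2 (65 against 2), Kap (146 against 7) and Igkc (10566 against 750) were higher, the last with 609 against 675 UMIs without the mixed cells. Lower were S100a9 (0 against 74), Ehd3 (0 against 20), S100a8, Spp1 (57 against 979) and Cxcl2. Kap, a proximal tubule gene, and Spp1, secreted by injured tubule, kept their directions without the mixed cells (3.42 and -2.36 on the log2 scale). Spp1 was also lower in reversed UUO than at day 2 in T cells (6682 and 1193 CPM) and in phagocytes (6641 and 2365), and its part as free RNA was not tested.

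**Figure D5:**
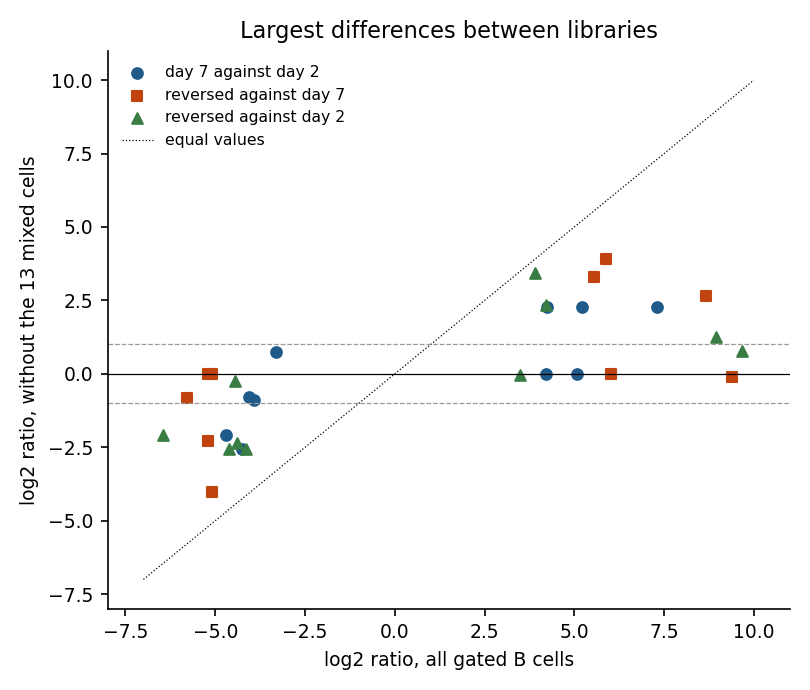
Log2 ratios of the named genes between 2 libraries for all B cells (horizontal) and without the 13 mixed cells (vertical), with 1 point per gene and comparison, a dotted line of equal values and dashed lines at 2-fold. Many points far from 0 on the horizontal axis lie near 0 on the vertical one, such as Igkc in reversed UUO against day 2 (3.49 and -0.025). Of the points, 8 are genes from the marker lists that defined the mixed cells, S100a8 among them.

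Between libraries, Ighd was -0.49 on the log2 scale at day 7 against day 2 (counting interval -1.15 to 0.14), 0.15 from day 7 to reversed UUO (-0.49 to 0.81) and -0.34 from day 2 to reversed UUO (-0.87 to 0.19). Fcer2a gave -0.50 (-1.50 to 0.44), -0.21 (-1.20 to 0.83) and -0.71 (-1.56 to 0.12) in the same order. Each of these intervals includes 0, and none excludes a change of 1.5-fold. No transcription factor or class II gene compared between day 7 and day 2 passed 2-fold, beside 20.3% of all genes, and H2-DMb1 was compared only through its higher library. With TMM, where 22.7% of all genes passed, H2-DMb2 (-1.18) and H2-Oa (-1.13) passed downward. In the comparisons with reversed UUO, where 21.6% (day 7) and 19.4% (day 2) of all genes passed, Pou2af1 (1.25) and Ikzf3 (1.17) were higher than at day 7 and Pax5 (1.15) higher than at day 2, each compared only through reversed UUO. Without the mixed cells Pou2af1 (0.17, 10 against 4 UMIs) and Ikzf3 (0.81, 12 against 3) no longer passed, while Pax5 gave 1.77 (17 against 5). Pax5 is one of the B cell markers by which mixed cells were chosen, so its value there follows in part from that choice. With TMM, H2-DMb2 (1.06, against day 7) and Ets1 (1.13, against day 2) passed as well. Among maturity genes, Zbtb20 (1.28) passed upward and Vpreb3 (-1.06) downward from day 2 to day 7, and neither passed against reversed UUO. Vpreb3 gave -0.72 without the day 2 cell that held 7 of its UMIs and -0.31 without the mixed cells (8 against 24 UMIs). Cd38 was lower in reversed UUO than at day 7 (17 against 22 UMIs; -1.13, -2.07 to -0.19) and Plac8 lower than at day 2 (33 against 56; -1.06, -1.71 to -0.43), and with TMM neither of these passed (-0.61 and -0.79). Nor did they pass without the mixed cells (-0.77 and -0.89). Cd9 had 8, 17 and 4 UMIs and Fcrla 17, 3 and 22 at day 2, at day 7 and in reversed UUO, and both were compared with day 7 only through the library where they were high. At day 7, 1 cell held 11 of the 17 Cd9 UMIs and 1 cell held 16 of the 27 Zbtb20 UMIs. Against day 2, Zbtb20 gave 0.51 without that cell and 0.39 without the mixed cells, and Cd9, at 1.47 with all cells, gave 0.52 and 0.20. With TMM Plac8 passed downward from day 2 to day 7 (-1.23). Among receptor signalling genes Bank1 passed, with 9 UMIs at day 7 against 29 at day 2 (-1.16, -2.32 to -0.09) and 56 in reversed UUO against 9 at day 7 (1.77, 0.79 to 2.87). Without the mixed cells the first ratio of Bank1 no longer passed (-0.83, 6 against 26 UMIs) and the second did (1.87, 50 against 6). Like Pax5, Bank1 is one of the markers by which mixed cells were chosen. Ptpn6 was lower in reversed UUO than at day 7 (-1.23) and Cd72 lower than at day 2 (-1.04), both compared only through the higher library, and with TMM neither passed (-0.72 and -0.78). Leaving out the mixed cells gave -1.23 for Ptpn6 and -0.53 for Cd72. Iglc2 and Iglc3 together had 239 UMIs at day 2, 60 at day 7 and 346 in reversed UUO (218 without the plasma-like cell). Iglc1 had 31, 47 and 110 UMIs (62 without that cell), and at day 7 a pair of cells held 33 of the 47.

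Of the 16 interferon response genes listed, 4 had enough UMIs to compare day 7 with day 2. The log2 ratios with scaling by totals were 1.16 for Ifi203 (counting interval 0.11 to 2.24), 1.08 for Ifi27l2a (0.20 to 1.98) and 1.97 for Ly6a (1.38 to 2.59). Bst2, with 5, 16 and 11 UMIs at day 2, at day 7 and in reversed UUO, was compared with day 7 only through that library. With TMM, Ly6a (1.72) passed 2-fold and Ifi203 (0.91) and Ifi27l2a (0.83) did not. In CPM, Ifi27l2a stood at 213, 460.3 and 273 and Ly6a at 366, 1463 and 811 at day 2, at day 7 and in reversed UUO. One day 7 cell held 57 of the 89 Ly6a UMIs. Without it the ratio of day 7 to day 2 was 1.01 for Ly6a (32 against 31 UMIs), and without the mixed cells it was 1.37 (23 against 21 UMIs). Without the day 7 cell richest in each gene, Ifi203 gave 0.89 (15 against 12 UMIs) and Ifi27l2a 0.80 (22 against 18), both under 2-fold. Without the mixed cells these genes gave 1.22 (11 against 11) and 1.45 (21 against 18). From day 7 to reversed UUO the ratios were 0.23 for Ifi203 (-0.56 to 1.05), -0.73 for Ifi27l2a (-1.51 to 0.05) and -0.84 for Ly6a (-1.28 to -0.40). From day 2 to reversed UUO they were 1.39 for Ifi203 (0.47 to 2.37), 0.35 for Ifi27l2a (-0.51 to 1.24) and 1.13 for Ly6a (0.53 to 1.75). In reversed UUO 1 cell held 45 of the 86 Ly6a UMIs, and against day 2 Ly6a gave 0.46 without that cell and 0.76 without the mixed cells. Other classes moved in the same libraries: Ifi27l2a stood at 436, 1351 and 1040 CPM in T cells and at 738, 1693 and 1114 in phagocytes. Thinned endothelial cells had an Ifi27l2a UMI in 13.9%, 27.1% and 16.7% of cells, against 18.2%, 35.7% and 26.9% of B cells, and a Bst2 UMI in 35.4%, 52.9% and 45.6%, against 0%, 7.14% and 7.69%. The part of free RNA in these levels was not tested. Genes of other lists passed 2-fold too. Against day 2, Junb was lower at day 7 (-1.26, 18 against 61 UMIs) and Tubb5 in reversed UUO (-1.38, 20 against 43). Without the mixed cells they gave -0.10 and -1.05. Jun, Fos, Bcl2 and Tgfb1 each passed in at least 1 comparison, there compared only through the higher library.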

How the data were processed

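Droplet single-cell RNA was measured in 4 pooled libraries (10x 3′ V2 chemistry, per the labels' protocols), 1 per group. The matrices the authors deposited hold unnormalized UMI counts of 28692 genes in each cell. Cell Ranger, STAR, GRCm38 and mm10 are named in the submitters' processing notes, without versions. No column belonged to another series. Cells were chosen by the rule in the text, and T cells, phagocytes (Csf1r at least 2 UMIs) and endothelial cells by like rules.

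UMIs were summed per library and class and tested with edgeR 4.0.16 (R 4.3.3, TMM, filterByExpr, library block), with DESeq2 1.42.0 as an alternative. The sham library was left out of these fits, since classes needed at least 10 cells per library. For phagocytes the fit's prior degrees of freedom were infinite, so its p-values are not printed. In tests on simulated data, 94% of 4-fold and 24% of 2-fold changes were recovered against T cells (4652 genes), and 77% and 2% against phagocytes (9947 genes). The changes were put only into genes with many B cell UMIs, with a fixed spread and no difference between libraries. These rates therefore do not cover genes with few B cell UMIs, which include many of those named. Intervals are 95% Clopper-Pearson or exact conditional binomial and cover counting error only. A class at 0 was set to 3 UMIs over its 3 libraries, and the fold is then a lower bound. A class with 1 to 3 UMIs is given as a ratio with its counting interval.

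Named genes were all members of the gene lists and, per test, the 10 highest and 5 lowest fold changes among passing genes with 1 sign in every library. Between libraries they were the 5 largest differences each way. Genes of the rule, mitochondrial, ribosomal, haemoglobin, T cell receptor and variable-segment genes were left out of these ranks. The members and lists were chosen with earlier results of these data known. Leaving out the mixed cells, leaving out the plasma-like cell, allowing 1 Csf1r UMI, leaving out the cell with most UMIs of a gene and counting the genes compared only through their higher library were chosen after seeing the data. Some genes that these rules name are not reported here. Doublets were kept, and removing a preset share of cells, those with the highest Scrublet scores (scanpy 1.11.5), was an alternative.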

Additional observations from a re-analysis of the deposited data

How the results depend on the processing

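Of 190 alternative values of the shares, counts of genes and UMI shares, 146 kept to the reported value and 44 moved. With a mitochondrial limit of 20% or without the mixed cells, sham held 0 B cells on both denominators. Thinning before the rule, which left far fewer gated immune cells, gave 17.3%, 3.43% and 7.80% of them at day 2, at day 7 and in reversed UUO. It gave 0.494% of kept cells in reversed UUO. Without thinning, Ighd had a UMI in 77.3%, 71.4% and 76.9% of B cells and Fcer2a in 61.5% in reversed UUO, where Ighd at 500 UMIs gave 26.9%. Genes lower than in T cells were 145 by the DESeq2 Wald test and 481 with no filter. Leaving out each library gave 82 to 297 higher and 80 to 239 lower. Against phagocytes, 200 were higher with no library block, and 353 (DESeq2 Wald test), 507 (no block) and 381 (all 4 libraries) were lower. Leaving out each library gave 191 to 262 higher and 465 to 647 lower there. Between day 2 and day 7, counts of genes past 2-fold were 23 higher and 33 lower at 50 UMIs, 47 higher with 5 marker UMIs, 31 higher and 50 lower without mixed cells, and 146 lower with TMM. From day 7 to reversed UUO they were 165 higher and 75 lower with TMM, 29 and 21 at 50 UMIs, 99 lower with 5 marker UMIs, and 30 and 18 without mixed cells. From day 2 to reversed UUO they were 32 and 38 at 50 UMIs, 41 and 57 without mixed cells, and 77 lower with TMM, 88 with per-cell means and 89 with the highest Scrublet scores removed.

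Single genes in the fits kept their call in 2238 of 2472 alternatives, lost it in 224 and turned sign in 10, and genes too low to test under a setting gave no value there. Without mixed cells Gpx3 (-0.60) and Fxyd2 (-0.62) turned against T cells, and Miox (-1.40), Emcn (-0.16), Fxyd2 (-1.19) and Klk1 (-1.30) against phagocytes. With 5 marker UMIs Fxyd2 gave -0.43 and Klk1 -0.52, and leaving out each library gave -0.42 to 2.51 for Klk1 and -0.17 to 8.93 for Igha. Between libraries 187 of 276 values kept, 82 moved and 7 turned: S100a8 (0.76) and Igha (-0.11) without mixed cells, Slpi with the highest Scrublet scores removed (-1.55) and without the plasma-like cell (-1.40), and Igkc with those scores removed (-0.017), without mixed cells (-0.025) and without the plasma-like cell (-0.075). Fewer cells and UMIs stand behind each such setting, and beyond that the cause was not tested. No paired analysis was possible because each group is 1 library, so groups share fewer than 2 replicate numbers. With 63 shallow cells, genes under about 20 UMIs over 2 libraries were not compared in time.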
